A study of Mus musculus with 8 samples.

Results

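The genes described here are 10 targets or components of the ATF4 amino acid response: Asns, Psat1, Phgdh, Shmt2, Mthfd2, Chac1, Trib3, Ddit3, Atf4 and Slc7a11. They were found on the arrays by gene name among the non-control probes, and they had been selected on earlier results of the same GFP-positive against GFP-negative contrast, so their differences below are a description and support nothing. All 10 were measured, by 14 probes, out of 19710 features (genes or unnamed transcripts) that entered the fit. The data were 8 one-colour expression arrays of MAM326, a mouse mammary cancer cell line, sorted by fluorescence into 4 GFP-positive and 4 GFP-negative samples. Every sample was grown in DMEM with 10% heat-inactivated fetal bovine serum, and the cells were sorted 2 days after they were seeded. Both fractions thus shared line, medium and timing, and no treatment or genotype separated them other than GFP. Per the labels, 4 separate experiments were run at different passages, without a statement of which array came from which, so every p-value below refers to the spread between these arrays. The sources used here do not name the promoter or tag behind GFP.

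ATF4 is a transcription factor whose messenger RNA is translated when the initiation factor eIF2 is phosphorylated by one of its stress kinases, among them GCN2, which senses uncharged transfer RNA. In the nucleus it pairs with C/EBP proteins on composite elements and raises transcription of enzymes that make asparagine, serine and one-carbon units, of amino acid transporters and of transfer RNA synthetases. The same factor also feeds a stress branch, in which CHOP (Ddit3) and the pseudokinase TRIB3 act as regulators, CHAC1 degrades glutathione, and SLC7A11 imports cystine for glutathione synthesis. Because ATF4 is controlled at translation, its messenger RNA level and the activity of the protein need not move together.

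The composite element is often written TGATGNAA and is named CARE (C/EBP-ATF response element). It was searched on both strands in the 250 bases before each start in the RefSeq promoters of GRCm38.p6, in which all 10 members were found, Psat1 with 2 starts. The stretches below are shown because they carry the element in front of 3 members and a variant spelling in front of 2, and the capitals mark the match. The lines for Asns, Chac1 and Slc7a11 hold TGATGNAA on 1 or the other strand, and those for Trib3 and Psat1 hold TGGTGCAA, a spelling that was searched for only after the member promoters had been read.
Asns, chr6:7693210-7693252, minus strand: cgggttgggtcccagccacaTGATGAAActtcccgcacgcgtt
Chac1, chr2:119351029-119351076, plus strand: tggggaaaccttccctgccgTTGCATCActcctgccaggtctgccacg
Slc7a11, chr3:50443633-50443699, minus strand: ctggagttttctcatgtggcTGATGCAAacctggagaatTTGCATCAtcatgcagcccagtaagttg
Trib3, chr2:152344066-152344113, minus strand: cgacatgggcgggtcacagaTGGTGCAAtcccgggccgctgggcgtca
Psat1, chr19:15925168-15925215, minus strand: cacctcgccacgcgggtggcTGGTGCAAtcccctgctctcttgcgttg

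The Asns match began 23 bases before the start, the Trib3 match 33 bases before it, the Psat1 match 136 and the Chac1 match 193. Slc7a11 held a pair of matches, 66 and 47 bases before its start, facing each other on opposite strands. TGATGNAA was found in 3.45% of the 32851 promoters searched and TGGTGCAA in 0.463%. TGACGTCA, the palindromic site of the CREB and ATF families, was present in 1.55% of promoters and in 0 of the members. The windows of Atf4, Ddit3, Phgdh, Shmt2 and Mthfd2, and that of the other Psat1 start, held none of these letters, which says only that they are not in this window.

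Levels are given as the log2 signal relative to the 75th percentile of the same array, so 0 is that percentile. No probe's level is set against another's, except where the levels of cell type markers are summed. Values of a group are listed from replicate 1 to replicate 4, and replicates have no order. Of the 10 members 8 had a lower mean in GFP-positive cells and 2 a higher one, with a median log2 difference of -0.37 against -0.06 over all features, of which 60.7% were negative. The 5 enzymes of amino acid and one-carbon synthesis had a median of -0.42 and the other 5 members one of -0.17. In limma, with Benjamini-Hochberg adjustment over all features, 2 members had an adjusted p under 0.05 and a lower level in GFP-positive cells, where 0.741% of all features did, and 0 members had a higher one, where 1.82% did. The groups did not overlap, with GFP-positive lower, for 4 members and for 11.6% of features. An unadjusted p under 0.05 with a lower level was found for 6 members and for 15.1% of features, and nothing is read from these shares because the members came from the same contrast. In such bulk samples fewer cells that express a gene and less RNA per cell cannot be told apart.

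**Figure D1:**
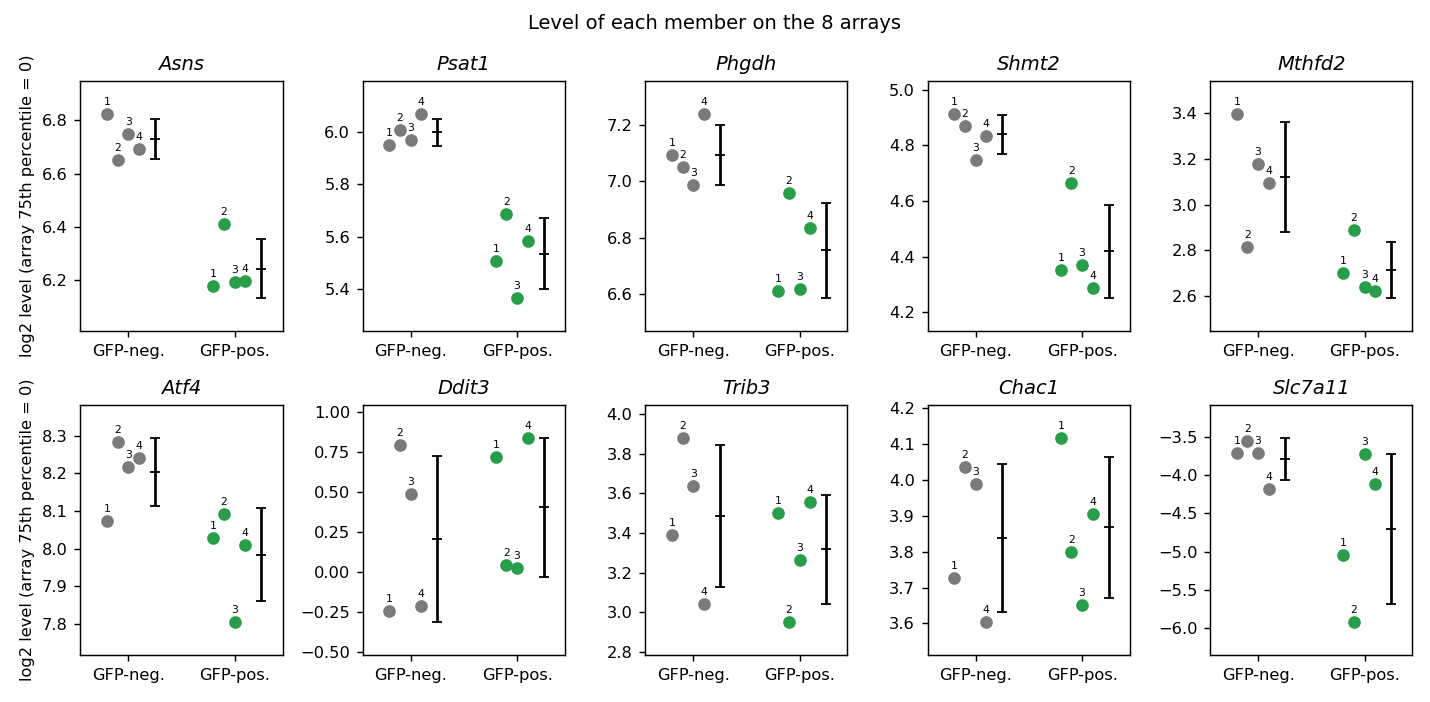
Log2 level of each member on the 8 arrays, relative to the array's 75th percentile, with GFP-negative samples in grey and GFP-positive samples in green, the replicate number above each point, and the mean ± SD (n = 4) beside each group; each panel has its own scale. The groups of Asns, Psat1, Phgdh and Shmt2 do not overlap, and those of the other 6 members do.

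Asns encodes asparagine synthetase, which makes asparagine from aspartate and glutamine and is a classic target of ATF4. Its levels were 6.82, 6.65, 6.75 and 6.69 in GFP-negative cells and 6.18, 6.41, 6.19 and 6.20 in GFP-positive cells. All 4 GFP-positive arrays lay below all 4 GFP-negative ones, with GFP-positive replicate 2 the nearest to them. The means were 6.73 ± 0.07 and 6.24 ± 0.11 (SD, n = 4), a difference of -0.48 ± 0.08 (SE), or a ratio of 0.715 (adjusted p = 0.0252, limma). The difference was -0.49 among the 4 arrays of slide row 1 and -0.48 among those of row 2. With 1 array left out in turn it stayed between -0.54 and -0.45, but its adjusted p ran from 0.023 to 0.106 and was under 0.05 only without GFP-positive replicate 2. It was 0.06 after quantile normalization and 0.145 with no filter on dim probes. The probe lies at chr6:7625171-7625228 on the minus strand of mm9, the build of the array files.

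Phgdh and Psat1 encode phosphoglycerate dehydrogenase and phosphoserine aminotransferase, successive enzymes that lead from a glycolytic intermediate to serine. Psat1 was at 5.95, 6.01, 5.97 and 6.07 in GFP-negative cells and at 5.51, 5.68, 5.36 and 5.58 in GFP-positive cells, without overlap. The Psat1 difference was -0.46 ± 0.08, a ratio of 0.725 (adjusted p = 0.0346, limma). It was -0.60 in slide row 1 and -0.33 in row 2, so the rows had the same sign and unequal sizes. Leaving out 1 array at a time gave an adjusted p of 0.0361 to 0.13 for Psat1, under 0.05 only without GFP-positive replicate 2. It was 0.0629 with slide row as a block and 0.171 with no filter on dim probes. That probe lies at chr19:15979622-15979681 (mm9, minus strand). The other Psat1 probe, at chr19:15991586-15991645, read 2.01, 2.17, 2.28 and 2.10 against 1.68, 1.80, 1.61 and 1.65, again without overlap and with a difference of -0.46 ± 0.08.

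Phgdh was measured by 3 probes. The brightest, which stands for the gene, read 7.09, 7.05, 6.99 and 7.24 in GFP-negative cells and 6.61, 6.96, 6.62 and 6.83 in GFP-positive cells. These groups came within 0.03 of touching, between GFP-negative replicate 3 and GFP-positive replicate 2. The difference was -0.34 ± 0.10, with an adjusted p of 0.113 in limma, and it was -0.53 in slide row 1 and -0.14 in row 2. The files place this probe at chr17:53337968-53338027, away from the Phgdh locus, and name it after a cDNA clone, so it may also read a near-identical copy. The probes at the locus itself, chr3:98117215-98117274 and chr3:98117303-98117361, gave differences of -0.30 ± 0.11 and -0.34 ± 0.11, each with overlapping groups. The first of them read 6.85, 6.92, 6.67 and 7.07 against 6.46, 6.73, 6.51 and 6.60. The 3 probes thus gave like differences, while the gap between the groups was seen with the brightest probe only.

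Shmt2 and Mthfd2 encode the mitochondrial enzymes that take a one-carbon unit from serine onto folate and then oxidise it. Shmt2 was at 4.91, 4.87, 4.75 and 4.83 in GFP-negative cells and at 4.35, 4.67, 4.37 and 4.29 in GFP-positive cells. Its groups did not overlap, and GFP-positive replicate 2 was again nearest to the GFP-negative arrays. The Shmt2 difference was -0.42 ± 0.10, a ratio of 0.747, and its adjusted p of 0.0621 in limma missed the threshold; it was 0.0295 without GFP-positive replicate 2. The probe is at chr10:126954811-126954870 (mm9, minus strand). Mthfd2 read 3.40, 2.82, 3.18 and 3.09 in GFP-negative cells and 2.70, 2.89, 2.64 and 2.62 in GFP-positive cells, and GFP-negative replicate 2 lay below GFP-positive replicate 2. The Mthfd2 difference was -0.41 ± 0.13 (adjusted p = 0.12, limma), with -0.28 in slide row 1 and -0.53 in row 2. Its probe is at chr6:83256518-83256577 (mm9, minus strand).

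Among the regulators, Atf4 itself read 8.07, 8.28, 8.22 and 8.24 in GFP-negative cells and 8.03, 8.09, 7.81 and 8.01 in GFP-positive cells. The groups overlapped by GFP-negative replicate 1 and GFP-positive replicate 2 alone. The difference was -0.22 ± 0.09 (adjusted p = 0.189, limma), with -0.34 in slide row 1 and -0.10 in row 2, from the probe at chr15:80087902-80087961 (mm9, plus strand). The other Atf4 probe, at chr15:80086639-80086698, gave -0.19 ± 0.09, also with overlap. Neither probe measures translation of the message.

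Ddit3, which encodes CHOP, a C/EBP-family factor that rises in prolonged stress, read -0.24, 0.80, 0.48 and -0.22 in GFP-negative cells. In GFP-positive cells it read 0.72, 0.04, 0.02 and 0.83. Each fraction held 2 high and 2 low arrays, and the difference of 0.20 ± 0.30 (adjusted p = 0.733, limma) was smaller than the spread within either fraction. It was 0.08 in slide row 1 and 0.32 in row 2. The Ddit3 probe is placed from 126732518 to 126732821 on chromosome 10 (mm9, plus strand).

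Trib3, whose product is a pseudokinase that binds AKT and ATF4, read 3.39, 3.88, 3.64 and 3.04 in GFP-negative cells and 3.50, 2.95, 3.26 and 3.56 in GFP-positive cells. The difference was -0.17 ± 0.20 (adjusted p = 0.665, limma), again with overlapping groups, and was -0.08 in slide row 1 and -0.26 in row 2. Its probe is at chr2:152163161-152163220 (mm9, minus strand).

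Of the glutathione genes, Chac1, a glutathione-degrading enzyme, read 3.73, 4.03, 3.99 and 3.60 in GFP-negative cells and 4.12, 3.80, 3.65 and 3.91 in GFP-positive cells. Its difference of 0.03 ± 0.14 (adjusted p = 0.922, limma; probe at chr2:119179990-119180049, mm9, plus strand) has no settled sign. Slc7a11, the light chain of the cystine-glutamate exchanger, was dim: its probe was well above background on all 4 GFP-negative arrays and on 3 of the GFP-positive ones. It read -3.70, -3.55, -3.70 and -4.18 in GFP-negative cells and -5.05, -5.92, -3.72 and -4.12 in GFP-positive cells. GFP-positive replicates 1 and 2 lay below every GFP-negative array, and replicates 3 and 4 lay among them. The Slc7a11 difference was -0.92 ± 0.45 (adjusted p = 0.262, limma), with -0.52 in slide row 1 and -1.32 in row 2. Its probe is at chr3:50169700-50169759 (mm9, minus strand).

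**Figure D2:**
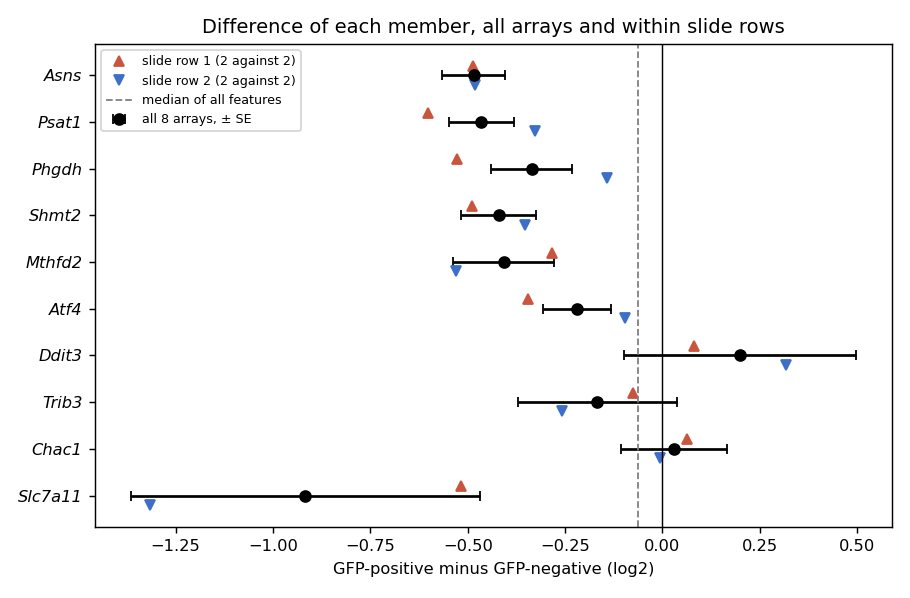
GFP-positive minus GFP-negative log2 difference of each member over all 8 arrays (black, ± SE of the limma fit) and within slide row 1 (red) and slide row 2 (blue), each row holding 2 arrays of each group; the dashed line is the median of all features, -0.06. Asns had nearly the same difference in both rows (-0.49 and -0.48), while the interval of ± 1 SE reached 0 for Ddit3, Trib3 and Chac1.

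The members varied over the arrays in 2 patterns. Ddit3, Trib3 and Chac1 were each high on the same 4 arrays, replicates 2 and 3 of the GFP-negative and replicates 1 and 4 of the GFP-positive fraction, and low on the other 4. After the group means were removed, the 3 pairs among them correlated with r between 0.79 and 0.90 over the 8 arrays. The 10 pairs among Asns, Psat1, Phgdh, Shmt2 and Mthfd2 gave r between 0.14 and 0.85, with a median of 0.52. The 15 pairs across the groups of genes gave r between -0.65 and 0.07, with a median of -0.44. These correlations describe 8 arrays, were looked at after the values were seen, and carry no test. They share the array's scaling, sample and RNA preparation. Of the high and of the low arrays of the Ddit3 pattern 2 were in either slide row. The high arrays lay in columns 1 and 2 of row 1 and columns 3 and 4 of row 2. The low arrays lay in columns 3 and 4 of row 1 and columns 1 and 2 of row 2, so the pattern went with neighbouring slide positions. The number of probes well above background was 26165 to 29363 on the high arrays and 25112 to 31970 on the low ones. The part of slide position in this pattern was not tested.

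**Figure D3:**
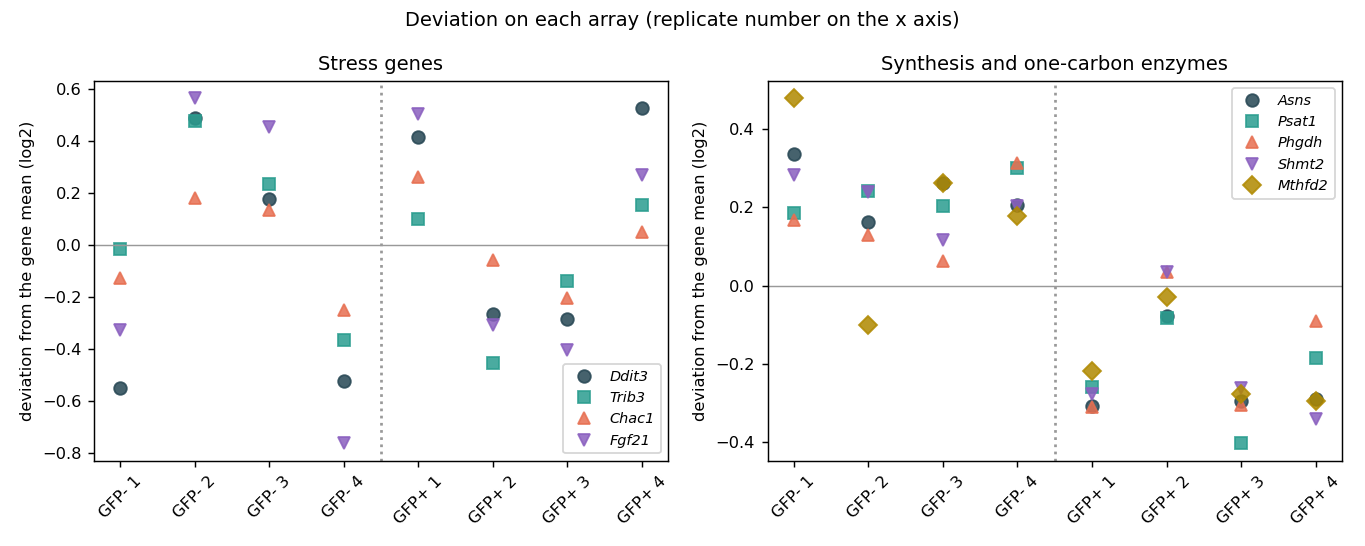
Deviation of each array from the gene's mean over all 8 arrays (log2), for Ddit3, Trib3 and Chac1 with Fgf21 on the left and for the 5 synthesis and one-carbon enzymes on the right; the dotted line divides the 4 GFP-negative from the 4 GFP-positive arrays. On the left the points lie high on the same 4 arrays in both fractions, and on the right most GFP-negative points lie above 0 and most GFP-positive points below it.

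The gene whose levels were most like the mean profile of Ddit3, Trib3 and Chac1, among 12090 named genes well above background on all arrays, was Fgf21, with Pearson's r of 0.99 and Spearman's rho of 0.90 over 8 arrays. Fgf21 encodes a stress-induced hormone and belonged to the list of ATF4 stress targets. It read -3.30, -2.40, -2.52 and -3.73 in GFP-negative cells and -2.47, -3.28, -3.37 and -2.70 in GFP-positive cells, high on the same 4 arrays as Ddit3. Zfp661 (r = 0.96), Usf1 (0.94), Stat2 (0.94) and Pcgf1 (0.93) came next. This search was added after the pattern had been seen. By the rule set for the mean profile of the 9 members measured on all arrays, the most similar genes included Snx3 (r = 0.98), Zfp781 (0.97) and Chtf18 (0.97). The lowest correlations with that profile were those of Prps2 (-0.99), Ptpdc1 (-0.97) and Tekt2 (-0.97). Of these 6 genes, Ptpdc1 alone passed the threshold between the fractions, 0.71 ± 0.11 higher in GFP-positive cells (adjusted p = 0.0176, limma), and it lost that call without GFP-negative replicate 2 or 3 or GFP-positive replicate 1, with up to 0.077.

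Other genes of the pathway were read from 7 lists, none of which contains a member, and 8 of their genes passed the threshold. Of all features 0.741% passed with a lower level and 1.82% with a higher one, and 60.7% had a negative difference. The lists were chosen with earlier results of these data known, so their counts are a description and support nothing. Of 20 cytosolic transfer RNA synthetases, which charge transfer RNAs with amino acids and many of which are ATF4 targets, 2 fell and 0 rose. Lars, the leucine enzyme, fell by 0.43 ± 0.07 on the log2 scale (adjusted p = 0.0217, limma), from 5.06, 5.07, 5.01 and 5.15 to 4.57, 4.72, 4.61 and 4.68. Yars, the tyrosine enzyme, fell by 0.50 ± 0.09 (adjusted p = 0.0364, limma), from -1.29, -0.96, -1.05 and -0.97 to -1.55, -1.49, -1.58 and -1.65. The sign was negative for 19 of the 20, with Qars the exception at 0.08, and the list's median was -0.31. An unadjusted p under 0.05 with a lower level was found for 17 of them and for 15.1% of all features. The groups did not overlap, with GFP-positive lower, for 14 of them and for 11.6% of all features. Lars kept its call only without GFP-positive replicate 2, and Yars only without GFP-negative replicate 1, when 1 array was left out in turn, and their highest adjusted p values were 0.0967 and 0.129.

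Among amino acid transporters, 13 of 14 were measured, 1 fell and 0 rose. Slc7a6, a light chain that exchanges cationic for neutral amino acids, was at 0.80, 0.85, 0.80 and 0.93 in GFP-negative cells and at 0.28, 0.45, 0.23 and 0.41 in GFP-positive cells. Its groups did not overlap, and it fell by 0.51 ± 0.08 (adjusted p = 0.0181, limma). The call was lost without GFP-negative replicate 2, 3 or 4 or GFP-positive replicate 1, with an adjusted p of up to 0.0814. The list's median was -0.32, with 10 of 13 negative. An unadjusted p under 0.05 with a lower level was found for 7 of the 13 and for 15.1% of all features. Slc3a2, the heavy chain that partners both Slc7a6 and Slc7a11 and was named after its value was seen, read 5.32, 5.41, 5.45 and 5.47 against 5.13, 5.20, 5.02 and 5.04, a difference of -0.32 ± 0.07 with an adjusted p of 0.0623 in limma. Slc7a5, the leucine transporter, named likewise, had a difference of -0.77 ± 0.16 (adjusted p = 0.0514, limma). It was -1.14 in slide row 1 and -0.40 in row 2.

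Of 18 other enzymes of serine, glycine and one-carbon metabolism 17 were measured, 0 fell and 1 rose. The riser was Aldh1l1, the cytosolic enzyme that oxidises formyl-tetrahydrofolate and so removes one-carbon units. It was at -3.23, -3.03, -3.50 and -3.26 in GFP-negative cells and at -0.75, -0.80, -0.83 and -0.51 in GFP-positive cells. The rise of 2.53 ± 0.12 (adjusted p = 0.000123, limma) kept its call without each of the 8 arrays and was 1.60 with another background correction (normexp). Over the whole list, Aldh1l1 included, 15 of 17 were negative and the median was -0.26. An unadjusted p under 0.05 in limma with a lower level was found for 9 of the 17 and for 15.1% of all features. The groups did not overlap, with GFP-positive lower, for 6 of them and for 11.6% of all features. Psph, the phosphatase that completes serine synthesis after Phgdh and Psat1 and was named after its value was seen, read 4.23, 4.51, 4.30 and 4.30 against 3.68, 3.89, 3.42 and 4.03. Its groups did not overlap, and its difference was -0.58 ± 0.14 (adjusted p = 0.0663, limma). Aldh1l2, the mitochondrial counterpart of Aldh1l1, had the lowest value of the list, -1.22 ± 0.41 (adjusted p = 0.133, limma). It was -2.24 in slide row 1 and -0.21 in row 2.

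Upstream of ATF4, 14 genes for eIF2, its exchange factor eIF2B, the eIF2 kinases and the phosphatase subunits were measured, of which 1 fell and 0 rose. Eif2b4, a subunit of the exchange factor, went from 4.66, 4.73, 4.72 and 4.68 to 4.32, 4.37, 4.25 and 4.36, a fall of 0.37 ± 0.06 without overlap (adjusted p = 0.0253, limma). Its call held only without GFP-positive replicate 2 when 1 array was left out, with an adjusted p of up to 0.106. The list's median was -0.20, with 13 of 14 negative. Eif2ak3, which encodes the kinase PERK and was named after its value was seen, was the exception at 0.45 ± 0.15 (adjusted p = 0.127, limma), with 0.77 in slide row 1 and 0.13 in row 2.

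Of 26 partners and stress targets of ATF4, 25 were measured, 0 fell and 3 rose. Gdf15, a secreted stress cytokine, was at 0.84, 1.34, 0.89 and 1.49 in GFP-negative cells and at 2.62, 3.06, 2.30 and 2.88 in GFP-positive cells, a rise of 1.58 ± 0.21 (adjusted p = 0.00967, limma) that kept its call without each array. Among the arrays of row 1 Gdf15 differed by 1.04, and among those of row 2 by 2.11. Sesn2, a leucine-binding inhibitor of mTORC1 signalling, rose by 0.95 ± 0.15 (adjusted p = 0.0194, limma), from 1.96, 1.51, 1.88 and 1.60 to 2.82, 2.49, 2.95 and 2.50. Tnfrsf10b, a death receptor, rose by 0.40 ± 0.07 (adjusted p = 0.0236, limma), from 3.04, 2.99, 2.99 and 3.11 to 3.49, 3.44, 3.35 and 3.45. The groups of all 3 did not overlap, and the Sesn2 difference was 1.33 in slide row 1 and 0.58 in row 2. Sesn2 lost its call without GFP-negative replicate 2 or 4 or GFP-positive replicate 1 or 3, with an adjusted p of up to 0.0814, and Tnfrsf10b kept its call only without GFP-positive replicate 3, with up to 0.106. Gdf15, Sesn2 and Tnfrsf10b are also known targets of p53. The list's median was -0.16, with 13 of 25 negative and 12 positive. An unadjusted p under 0.05 in limma was found for 4 with a lower level, where 15.1% of all features had one, and for 5 with a higher level. The groups did not overlap for 3 with GFP-positive lower, as for 11.6% of all features, and for 5 with GFP-positive higher.

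The other stress arms were used as a comparison. Of 16 genes of the ATF6 and XBP1 arm, which serve protein folding in the endoplasmic reticulum, 0 passed the threshold, with a median of -0.06. An unadjusted p under 0.05 in limma with a lower level was found for 2 of them and for 15.1% of all features. With a higher level it was found for 1, Sdf2l1, named after its value was seen, at 0.24 ± 0.09. Hyou1, a chaperone, had a difference of -0.28 ± 0.09 and Pdia6, a disulfide isomerase, one of -0.27 ± 0.09, the largest of that list. Of 12 genes of the NRF2 oxidative stress response 0 passed in limma, with a median of 0.03. An unadjusted p under 0.05 in limma was found for 1 with a lower level and for 0 with a higher one. Gclm, a subunit of the glutathione-forming ligase, had a difference of -0.38 ± 0.13 and Slc48a1, a heme transporter, one of 0.29 ± 0.20. Whether the medians of these lists differ from that of the members was not tested.

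**Figure D4:**
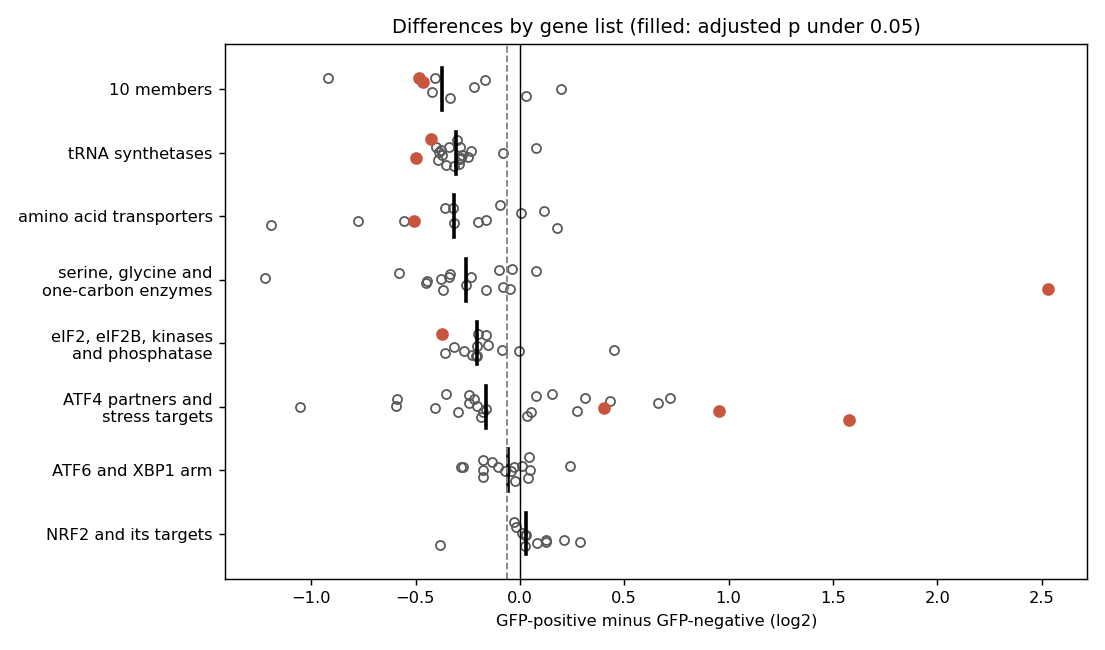
GFP-positive minus GFP-negative log2 difference of each measured gene in the 10 members and the 7 pathway lists, with filled points for an adjusted p under 0.05, a black bar at each list's median and a dashed line at the median of all features, -0.06. The medians run from -0.37 for the members to 0.03 for NRF2 and its targets, and Aldh1l1 lies apart from its list at 2.53.

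All arrays were scanned once from 1 slide, with no saturated spot. The number of probes well above background ran from 25112 to 31970 (45.1% to 57.4%) and divided by slide row, with 28334 to 31970 on the 4 arrays of row 1 and 25112 to 26795 on those of row 2. Each row held 2 arrays of each fraction. All 8 epithelial tumour markers were well above background on every array, with summed linear levels of 432 to 694 in GFP-negative and 532 to 776 in GFP-positive cells. Such a sum is weighted to the brightest probes of its list, here those of Krt18 and Krt8, and does not stand for each marker. Over all arrays all 8 epithelial markers had a positive difference, with a median of 0.44, opposite in sign to that of the members. Within slide row 1 all 8 were positive too. In row 2 Cdh1, Cldn7, Epcam, Krt8, Krt18 and Trp63 were negative, from -0.30 to -0.09, and only Krt14 and Krt5 were positive. Of the 8 epithelial markers 0 passed the threshold in limma and 2 had an unadjusted p under 0.05. They were the basal keratins Krt14, at 0.67 ± 0.24, and Krt5, at 1.18 ± 0.32, each with overlapping groups. Krt14 differed by 1.19 in slide row 1 and 0.15 in row 2, and Krt5 by 1.84 and 0.51. Krt5 was dim, at -4.75 to -3.70 in GFP-negative and -3.88 to -2.44 in GFP-positive cells. Of 8 fibroblast markers 6 were above background on all arrays and Lum on none. Their sums were 14.2, 171, 98.9 and 119 in GFP-negative cells and 16.0, 37.1, 3.82 and 60.5 in GFP-positive cells, so they were lowest on GFP-positive replicate 3 and highest on GFP-negative replicate 2. Col1a2 and Col1a1 weighed most in these sums. Of the 7 fibroblast markers tested 0 passed the threshold in limma and 1, Dcn, had an unadjusted p under 0.05. Dcn differed by -1.75 ± 0.51, with overlapping groups, and by -1.86 in slide row 1 and -1.63 in row 2. The median difference of the 7 was -1.75, of the same sign as that of the members, with 6 negative and Thy1 the exception at 0.39. In GFP-positive cells Col1a1, Col1a2, Col3a1, Pdgfra and Pdgfrb were lower in row 1 and higher in row 2. Col1a1, a fibrillar collagen chain, read 1.64, 5.94, 4.95 and 5.03 in GFP-negative cells and 2.11, 3.32, -0.44 and 4.08 in GFP-positive cells, a difference of -4.65 in slide row 1 and 0.40 in row 2. The part of the epithelial and fibroblast markers in the members' differences was not tested. Of 5 endothelial markers Cdh5, Emcn and Tie1 were above background on no array, and the leukocyte marker Ms4a1 was likewise above it on none. The endothelial sums were 6.40 to 8.06 in GFP-negative and 6.34 to 7.95 in GFP-positive cells, and the leukocyte sums 13.2 to 19.9 and 13.0 to 22.1.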

How the data were processed

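Each file held the scanner output of 1 one-colour array, made per the file headers with Agilent Feature Extraction 10.7.3.1, with probe positions on mm9. Per the labels, Cy3 cRNA was made from 20 ng of RNA. The deposited intensity used was the processed signal, already corrected for background by that program. The sources used here name no further step by the authors.

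Marked outlier spots (106 to 186 per array) were left out, the log2 intensity was set relative to each array's 75th percentile, and spots of a probe were averaged. Probes had to be well above background on 4 or more of the 8 arrays, and the brightest kept probe stood for a gene. Of 55681 probes, 27509 (49.4%) matched the RefSeq table of GRCm38.p6 by accession and took its symbol, and the rest took the symbol of other probes of the same name or kept the file's name. The fractions were compared by limma's lmFit and eBayes (version 3.58.1, two-sided, R 4.3.3, data.table version 1.17.8). Adjusted p values follow Benjamini and Hochberg, over all features, and 0.05 was the threshold. No value was imputed and no sample was dropped. The number of arrays limits the precision. The steps were tested on simulated data.

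The members, the gene lists and the rule for named genes were chosen with earlier results of these data known. The rule took all 10 members, every list gene past the threshold up to 4 per list (otherwise the 2 largest differences), and the 5 genes most and 3 least like the members' mean profile; some of these are not reported here. Other genes are said to be named after their values were seen. Alternatives were normexp background correction (offset 50), quantile normalization, other filters, the mean of probes, replicate number or slide row as a block, fits within rows, array weights, a trended robust prior, and leaving out each array.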

Additional observations from a re-analysis of the deposited data

Results flagged for a closer look

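Asns on GFP-positive replicate 2, at 6.41, stood apart from the other 3 GFP-positive arrays, of which the nearest was at 6.20. Its gap to that array was 0.921 of the range of the group, above Dixon's critical value at the 95% level for 4 samples. Of 60 groups of 4 arrays examined, over the members and the other named genes, this was the 1 that passed, and chance marks about 1 in 20. The same array had the highest GFP-positive level of Psat1, Phgdh, Shmt2, Mthfd2 and Atf4 and the lowest number of probes well above background of all arrays, 25112. Without it the Asns difference was -0.54 in place of -0.48. Its part in the members' differences was not otherwise tested.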

How the results depend on the processing

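All 10 members except Chac1 kept their sign under the 19 alternatives (18 for Slc7a11, which was not on all arrays). Chac1 turned to -0.0052 within slide row 2, -0.0078 without GFP-negative replicate 1, -0.048 without GFP-negative replicate 4 and -0.053 without GFP-positive replicate 1, and ran from -0.053 to 0.10 when arrays were left out. Asns and Psat1 each passed under 7 of 19 and Shmt2 under 5. The count of features past the threshold in limma was 505, of members 2 and of pathway list genes 8. With normexp the features were 786 and the list genes 19; with quantile normalization the members were 1 and their median -0.25 instead of -0.37. Without a filter the counts were 154, 0 and 2, and with probes on all 8 arrays the list genes were 14. With slide row as a block they were 278, 1 (Asns) and 5. Within row 1 the features were 1053 and the members 0. Within row 2 all 3 counts were 0, with 1016 features lower at an unadjusted p under 0.05. Array weights gave 1578 features and 29 list genes, and the trended robust prior 1166 and 25. Leaving out 1 array gave 151 to 428 features, 0 to 3 members, 2 to 10 list genes and a median of -0.43 to -0.33. Members passed only without GFP-positive replicate 2 (Asns, Psat1 and Shmt2), and the fewest features passed without GFP-positive replicate 1. The share of calls that were higher was 71.1%, against 53.9% with normexp and 81.5% with quantile normalization. It was 98.7% without a filter and 55.1% with probes on all 8 arrays, and lower calls were the majority with array weights (45.2% higher) and with the trended robust prior (46.1% higher). With the replicate block the counts were 215, 0 and 3. Same-numbered arrays also lay in the same column of the slide, so this block was a block by slide column as well. They deviated together with r of -0.03, 0.07, 0.02 and 0.18, and no array correlated best with its own number. The highest correlations were those of GFP-negative replicates 1, 2, 3 and 4 with GFP-positive replicates 3, 4, 1 and 2, at 0.60, 0.65, 0.43 and 0.34. Both arrays of each of these pairs were on the same side of the Ddit3, Trib3 and Chac1 pattern. The labels do not give these pairs, so no fit used them. The slide could not be a block, since there was 1. The cause of these changes was not tested, other than that fewer arrays were fitted where some were left out. Dim probes such as Slc7a11 limit what can be read: its difference ran from -1.32 to -0.28.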
